A study of Homo sapiens with 4 samples.

Results

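The miR-15 and miR-16 family is a set of 5 human guide strands, hsa-miR-15a, hsa-miR-15b, hsa-miR-16, hsa-miR-195 and hsa-miR-497. They were taken by name from the 1733 mature miRNAs listed in each library, and all 5 had at least 1 count in each of the 4 libraries. The libraries held small RNA of Hep3B and Huh7, established human hepatoma (HCC) cell lines, and of Hep3B-C and Huh7-C, the stem-like cells (hepatic cancer stem cells, HCSCs) cultured from Hep3B and Huh7 respectively. The sample labels name no drug, gene change or time course. The sources used here do not describe how the stem-like cells were enriched or whether they are clonal. Whether any of these separated the HCSC from the HCC cultures is therefore not known. Each of the 4 conditions had 1 library, so no difference has a replicate check, every test compares libraries and not conditions, and every interval covers counting error only.

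A guide strand is the arm of a miRNA hairpin that is loaded into an Argonaute protein, and its seed (bases 2 to 8) pairs with target mRNAs, which are then repressed. Members of this family share their seed and are known for repressing G1 cyclins and cyclin-dependent kinases, which slows entry into the cell cycle. They are also known for repressing the anti-apoptotic gene BCL2. The miR-15a and miR-16-1 hairpins lie together in the DLEU2 transcript, a region often lost in chronic lymphocytic leukaemia, whereas miR-15b and miR-16-2 lie together in an intron of SMC4, which encodes a condensin subunit.

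The guide strands are shown because their shared seed sets the family apart and because bases outside the seed tell the members apart in counting. The seed is in capitals, 5′ to 3′, with the sequences of RefSeq (GRCh38.p14).
hsa-miR-15a: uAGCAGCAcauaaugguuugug
hsa-miR-15b: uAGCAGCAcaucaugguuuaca
hsa-miR-16: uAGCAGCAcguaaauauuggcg
hsa-miR-195: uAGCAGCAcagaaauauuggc
hsa-miR-497: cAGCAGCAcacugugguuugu
hsa-miR-424: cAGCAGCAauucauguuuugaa
hsa-miR-503: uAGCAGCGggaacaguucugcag
The seed AGCAGCA was found in 7 of 2370 mature human miRNAs (0.295%), 6 of which the files name: the 5 members and hsa-miR-424. The seed of hsa-miR-503, AGCAGCG, differs from it in the last base. Counted base by base from the 5′ end, hsa-miR-16 and hsa-miR-195 differ at 2 of 21 positions, both after the seed, and hsa-miR-15a and hsa-miR-15b differ at 4 of 22. Reads of such close sequences could be split between members by the authors' counting, in particular between the abundant hsa-miR-16 and the rare hsa-miR-195. No member had the same counts as another miRNA in all 4 libraries.

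The 5 guides come from 6 hairpins. On GRCh38, MIR15A lies at chr13:50049119-50049201 and MIR16-1 at chr13:50048973-50049061, both on the minus strand within DLEU2, where GENCODE places MIR15A over an exon and MIR16-1 in an intron. MIR15B at chr3:160404588-160404685 and MIR16-2 at chr3:160404745-160404825 lie on the plus strand in an intron of SMC4. MIR195 at chr17:7017615-7017701 and MIR497 at chr17:7017911-7018022 lie on the minus strand and overlap an exon of MIR497HG, their host transcript. The hairpins of miR-16 are shown, with the guide in capitals, because the same mature guide is cut from both.
MIR16-1: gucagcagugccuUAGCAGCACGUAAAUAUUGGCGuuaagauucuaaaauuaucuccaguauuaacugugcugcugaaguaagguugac
MIR16-2: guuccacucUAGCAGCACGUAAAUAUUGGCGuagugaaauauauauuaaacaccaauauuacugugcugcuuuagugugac
Counts of the hsa-miR-16 guide therefore could not be divided between chromosomes 13 and 3. Their passenger arms, the strands opposite the guides, do differ between the hairpins and were counted apart.
hsa-miR-16-1*: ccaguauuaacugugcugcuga
hsa-miR-16-2*: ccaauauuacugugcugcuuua
hsa-miR-15b*: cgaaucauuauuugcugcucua

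The libraries held between 1739278 (Hep3B) and 5741567 (Huh7) miRNA counts. Their share of total reads was 10.36% in Hep3B against 35.17% in Hep3B-C, and 54.05% in Huh7 against 37.75% in Huh7-C. TPM, which scales counts to the total reads of a library as in the study, therefore differs from CPM, which here scales them to its miRNA counts, by a factor that is not the same in each library, and both scales are given. Of the liver miRNAs, hsa-miR-192 and hsa-miR-148a had between 95296 and 706923 counts in each library, while hsa-miR-122 had 397 counts in Hep3B and between 144814 and 489443 in the other libraries. Of 8 embryonic stem cell miRNAs, 8 had no count in both Hep3B libraries, 6 in Huh7 and 5 in its HCSCs. Markers of mesenchymal and endothelial cells summed to between 1235 and 3198 counts. Nearly all were of hsa-miR-126 (807 to 2031 counts) and hsa-miR-143 (13 to 1706). The others on this list, hsa-miR-145, hsa-miR-199a-5p and hsa-miR-214, had at most 17 counts in any library.

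Within the family, hsa-miR-16 was the most abundant member in every library and hsa-miR-497 the least. The counts of hsa-miR-16 were 1422 (Hep3B), 8258 (Hep3B-C), 3430 (Huh7) and 2718 (Huh7-C), which gave 84.7, 535, 323 and 254 TPM. Hep3B-C was highest and Hep3B lowest in TPM. The levels in CPM were 818, 1521, 597 and 672, so that Hep3B-C remained highest but Huh7 was now lowest. All neighbours in both orders of hsa-miR-16 differed beyond counting error.

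The counts of hsa-miR-15a were 285, 868, 1714 and 992 in Hep3B, Hep3B-C, Huh7 and Huh7-C, or 16.98, 56.2, 161 and 92.6 TPM, and 164, 160, 299 and 245 CPM. On both scales Huh7 was highest and Huh7-C second. The Hep3B and Hep3B-C libraries differed in hsa-miR-15a per total reads but not beyond counting error per miRNA counts. The counts of hsa-miR-15b were 403, 2506, 284 and 354 in the same order of libraries, or 24.0, 162, 26.7 and 33.0 TPM, and 232, 461, 49.5 and 87.5 CPM. Hep3B-C was highest on both scales, the order in CPM was that of hsa-miR-16, and in TPM Huh7 and Hep3B did not differ beyond counting error.

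hsa-miR-195 had 44 and 211 counts in Hep3B and Hep3B-C and 46 and 21 in Huh7 and Huh7-C, or 2.62, 13.7, 4.33 and 1.96 TPM. In CPM it stood at 25.3 and 38.9 in Hep3B and Hep3B-C and at 8.01 and 5.19 in Huh7 and Huh7-C, with both Hep3B libraries above both Huh7 libraries. hsa-miR-497, which shares its host transcript with hsa-miR-195, had 8, 15, 11 and 7 counts, or 0.477, 0.971, 1.04 and 0.653 TPM. No neighbours in the order of hsa-miR-497 differed beyond counting error on either scale. A level of 3 counts, taken as the floor, was 0.179 to 0.282 TPM.

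**Figure D1:**
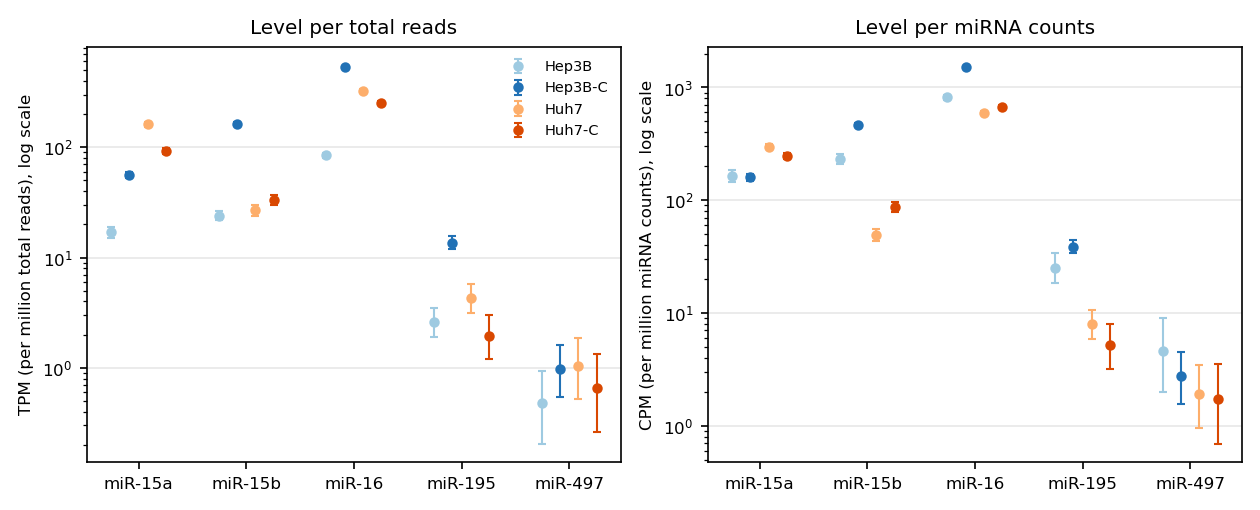
Level of each member in the 4 libraries, in TPM (left) and in CPM, scaled to miRNA counts (right), both on log axes. Points are single libraries and bars are exact 95% Poisson intervals of the counts. In hsa-miR-15a the Huh7 library (161 TPM) is highest, in hsa-miR-15b and hsa-miR-16 the Hep3B-C library (162 and 535 TPM), on both scales.

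The first question of the study's design is how HCSCs differ from the HCC cells they came from. In the Hep3B pair, the family summed to 2162 counts in Hep3B and 11858 in Hep3B-C, which was 129 and 768 TPM. The log2 fold-change of the sum was 2.58 (95% interval 2.51 to 2.64) per total reads and 0.81 (0.75 to 0.88) per miRNA counts. The counts were compared by Audic and Claverie's exact Poisson test, scaled by total reads, and a member was called where the log2 fold-change reached 1 in either direction with an adjusted p no larger than 0.01. By this test 4 of 5 members were up-regulated in Hep3B-C and 0 were down-regulated. On the same scale 34.1% of all 834 miRNAs tested in this pair were up-regulated and 2.52% fell past the thresholds. With total miRNA counts as library sizes, 0 of 5 members were called in either direction, beside 5.64% of all miRNAs up-regulated and 13.4% down-regulated.

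hsa-miR-15b had the highest log2 fold-change of the family in the Hep3B pair, at 2.76 (2.60 to 2.91) per total reads and 0.99 (0.84 to 1.15) per miRNA counts. hsa-miR-16 followed with 2.66 (2.58 to 2.74) and 0.90 (0.81 to 0.98), and hsa-miR-195 with 2.38 (1.91 to 2.89) and 0.62 (0.14 to 1.12). hsa-miR-15a stood at 1.73 (1.53 to 1.93) per total reads and at -0.04 (-0.23 to 0.16) per miRNA counts. On the second scale it thus did not differ from 0 beyond counting error. hsa-miR-497 was not called, with a log2 fold-change of 1.03 (-0.30 to 2.47) per total reads and -0.74 per miRNA counts. The median over the 475 miRNAs that reached 10 counts in Hep3B or Hep3B-C was 1.42 per total reads and -0.34 per miRNA counts. Relative to that median, which removes the choice of library size, hsa-miR-15b lay 1.33 above, hsa-miR-16 1.24, hsa-miR-195 0.96 and hsa-miR-15a 0.30 above, and hsa-miR-497 0.40 below (-0.40 on the log2 scale).

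In the Huh7 pair, the fold-change of the family was smaller. It summed to 5485 counts in Huh7 and 4092 in Huh7-C (516 and 382 TPM). The log2 fold-change of the sum was -0.44 (-0.49 to -0.38) per total reads, 0.08 (0.02 to 0.14) per miRNA counts and 0.14 with DESeq2 size factors, so that its sign turned with the library size. By the same test, 1 of 5 members, hsa-miR-195, was down-regulated and 0 were up-regulated, where 17.1% of the 772 miRNAs tested were called down-regulated and 3.11% up-regulated. With total miRNA counts as library sizes 0 of 5 were called, beside 7.25% of all miRNAs up-regulated and 9.59% down-regulated. The fall of hsa-miR-195, from 46 to 21 counts, had a log2 fold-change of -1.14 (-1.96 to -0.37) and an adjusted p of 0.00611 by the exact Poisson test, and -0.63 (-1.44 to 0.15) per miRNA counts.

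hsa-miR-15a and hsa-miR-15b, which share 18 of 22 bases, stood on opposite sides of 0 in the Huh7 pair. hsa-miR-15a had a log2 fold-change of -0.80 (-0.92 to -0.69) per total reads and -0.28 (-0.40 to -0.17) per miRNA counts. hsa-miR-15b had 0.31 (0.08 to 0.54) per total reads and 0.82 (0.59 to 1.05) per miRNA counts. Neither reached the fold threshold. hsa-miR-16 had -0.35 per total reads, -0.03 with TMM library sizes, 0.17 per miRNA counts and 0.22 with DESeq2 size factors, so its direction turned with the library size. The interval of hsa-miR-15b lay above 0 in both pairs under each of the 4 library sizes tried (total reads, total miRNA counts, TMM and DESeq2 size factors), and no other member had this. Relative to the median of the 431 miRNAs that reached 10 counts in Huh7 or Huh7-C (-0.66 per total reads), hsa-miR-15b lay 0.97 above, hsa-miR-16 0.32 above, and hsa-miR-15a and hsa-miR-195 below by 0.14 and 0.48 (-0.14 and -0.48).

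**Figure D2:**
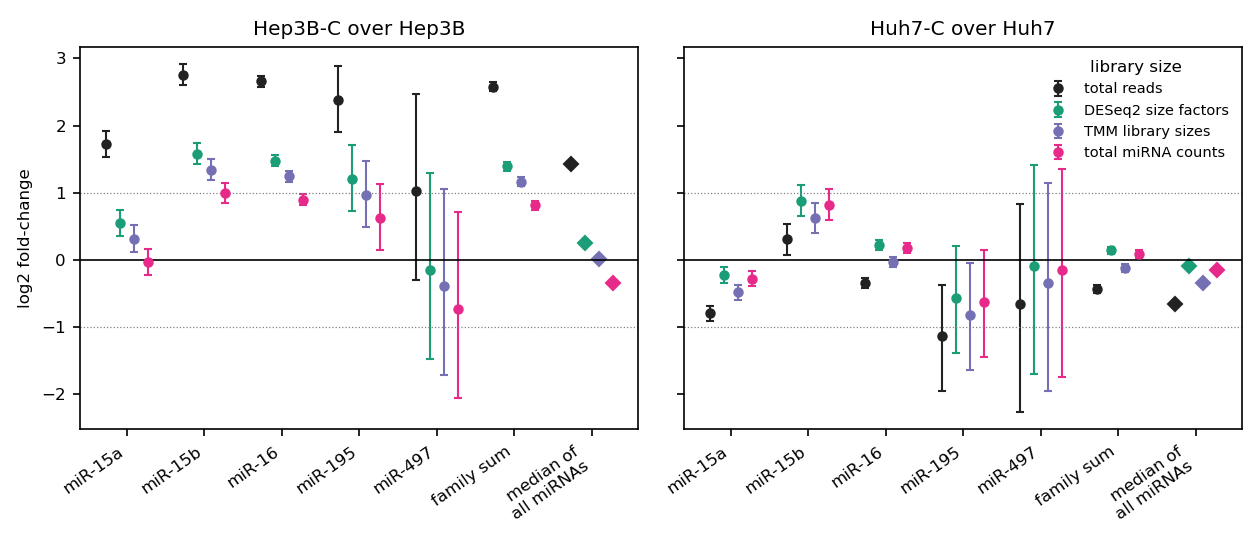
Log2 fold-change of each member and of their summed counts, HCSC library over HCC library, in the Hep3B pair (left) and the Huh7 pair (right), under 4 library sizes (colours). Bars are exact 95% intervals of the counts, diamonds the median of all miRNAs that reached 10 counts in a library of the pair, and dotted lines the fold threshold. hsa-miR-15b lies above 0 in every case (0.31 to 2.76), while hsa-miR-15a and hsa-miR-497 in the Hep3B pair and hsa-miR-16 in the Huh7 pair cross 0 with the library size.

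The fold-changes of the Hep3B and Huh7 pairs were also set against each other by an exact test over the 265 miRNAs that reached 10 counts in every library. With total reads, 4 of 4 members tested (hsa-miR-497 had too few counts) had a fold-change lower in the Huh7 pair past a log2 difference of 1, where 72.1% of all miRNAs were lower and 1.89% higher. With total miRNA counts 0 of 4 were called, where 7.92% of all miRNAs were lower and 26% higher. With TMM library sizes 2 of 4, hsa-miR-16 and hsa-miR-195, were lower, where 15.8% of all miRNAs were lower and 12.8% higher.

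Taking both cell lines as replicates, edgeR's quasi-likelihood test with the parent line as a block gave log2 fold-changes (HCSC over HCC) of 1.21 (SE 0.60) for hsa-miR-15b, 0.83 (SE 0.63) for hsa-miR-16 and 0.33 (SE 0.67) for hsa-miR-195. hsa-miR-15a had 0.14 (SE 0.60) and hsa-miR-497 had -0.14 (SE 0.78). These SE values were calculated back from the fold-change and the test statistic, since the test itself gives none. The adjusted p from edgeR was 0.584 for hsa-miR-15b and between 0.717 and 0.963 for the others, so 0 of 5 members passed. Of all 443 miRNAs in this fit 0% were called up-regulated and 0% down-regulated, and 31 had an unadjusted p under 0.05, none of them a member. DESeq2 also called 0 of 5 members, where it called 0.903% of the same miRNAs up-regulated and 0.226% down-regulated. The block removes level differences between the lines. Both tests thus judge the HCSC over HCC change against how unlike it was in Hep3B and Huh7. With 1 residual degree of freedom, no member's change passed in either test.

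The make-up of the family does not depend on library size. hsa-miR-16 held 65.8% and 69.6% of the family's counts in Hep3B and Hep3B-C and 62.5% and 66.4% in Huh7 and Huh7-C. In the same order hsa-miR-15a held 13.2%, 7.32%, 31.2% and 24.2%, and hsa-miR-15b 18.6%, 21.1%, 5.18% and 8.65%. In the Hep3B libraries hsa-miR-15b thus exceeded hsa-miR-15a, and in the Huh7 libraries hsa-miR-15a exceeded hsa-miR-15b. hsa-miR-195 held between 0.513% (Huh7-C) and 2.04% (Hep3B) and hsa-miR-497 between 0.126% (Hep3B-C) and 0.370% (Hep3B).

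Both HCSC libraries had a lower share of hsa-miR-15a and higher shares of hsa-miR-15b and hsa-miR-16 than their HCC libraries. The log2 odds ratio of hsa-miR-15a against the other members was -0.94 (exact conditional interval -1.15 to -0.73) in the Hep3B pair and -0.51 (-0.64 to -0.37) in the Huh7 pair. For hsa-miR-15b it was 0.23 (0.06 to 0.40) and 0.79 (0.56 to 1.03), and for hsa-miR-16 0.26 (0.11 to 0.40) and 0.25 (0.12 to 0.37). With hsa-miR-16 left out of the family sum, hsa-miR-15b had 0.94 (0.70 to 1.17) and 1.11 (0.86 to 1.37), and hsa-miR-15a had -0.98 (-1.22 to -0.73) and -0.95 (-1.20 to -0.71). For hsa-miR-195 the interval included 0 in both pairs. For hsa-miR-497 the log2 odds ratio was -1.55 (-2.88 to -0.10) in the Hep3B pair on 8 and 15 counts, and its interval included 0 in the Huh7 pair. Shares within a library sum to a whole, so these values are not independent of each other.

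**Figure D3:**
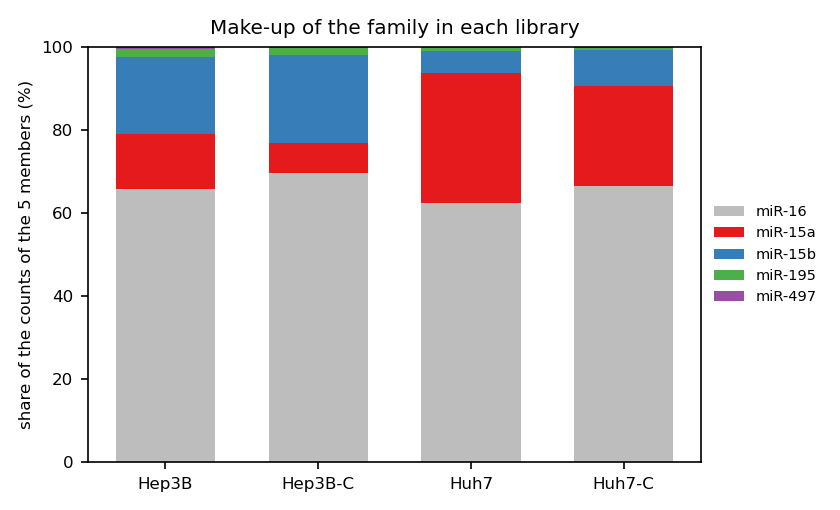
Share of the summed counts of the 5 members held by each member in each library, in percent. hsa-miR-16 holds 62.5% to 69.6% throughout, while hsa-miR-15a is the second member in the Huh7 libraries (31.2% and 24.2%) and hsa-miR-15b in the Hep3B libraries (18.6% and 21.1%).

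The ratio of hsa-miR-15a to hsa-miR-15b was chosen for description after its values were seen. It was 0.707 and 0.346 for Hep3B and Hep3B-C, and 6.04 and 2.80 for Huh7 and Huh7-C. The ratio was lower in the HCSC library of each pair, with a log2 odds ratio of -1.03 (-1.28 to -0.78) in the Hep3B pair and -1.11 (-1.36 to -0.85) in the Huh7 pair. It was higher in Huh7 than in Hep3B by 3.09 (2.80 to 3.38) on the log2 scale, and higher in Huh7-C than in Hep3B-C by 3.02 (2.81 to 3.23). The gap between the lines was thus larger than the gap between cell states, and both were free of the library size. Against hsa-miR-16, hsa-miR-15a was lower in the HCSC library by -0.93 (-1.14 to -0.72) and -0.45 (-0.59 to -0.32) on the log2 scale. hsa-miR-15b against hsa-miR-16 had 0.10 (-0.08 to 0.27) in the Hep3B pair and 0.65 (0.41 to 0.90) in the Huh7 pair.

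The passenger arms of miR-16 give a second ratio between the same loci, since hsa-miR-16-1* comes from the hairpin beside MIR15A and hsa-miR-16-2* from that beside MIR15B. Counts of hsa-miR-16-1* and hsa-miR-16-2* were 7 and 38 (Hep3B), 7 and 83 (Hep3B-C), 103 and 157 (Huh7), and 31 and 64 (Huh7-C). The chromosome 13 arm made up 15.6% (95% Clopper-Pearson interval 6.49% to 29.5%), 7.78% (3.18% to 15.4%), 39.6% (33.6% to 45.8%) and 32.6% (23.4% to 43.0%) of both in these libraries. Both Huh7 libraries were above both Hep3B libraries in this share, and the log2 odds ratio was 1.83 (0.58 to 3.29) between the HCC lines and 2.51 (1.18 to 4.03) between the HCSC lines. Within the pairs the intervals included 0 (-2.97 to 0.73 in the Hep3B pair and -1.21 to 0.31 in the Huh7 pair). Whether passenger counts follow the output of a locus was not tested. From Hep3B to Hep3B-C, hsa-miR-16-2* went from 38 to 83 counts, or from 2.26 to 5.38 TPM but from 21.8 to 15.3 CPM. Its log2 fold-change per miRNA counts was -0.52 (-1.09 to 0.08), so it rose per total reads but not per miRNA counts. Over the same libraries hsa-miR-15b*, from the same SMC4 intron, went from 73 to 19 counts. That was a fall on both scales, from 4.35 to 1.23 TPM and from 42.0 to 3.50 CPM.

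**Figure D4:**
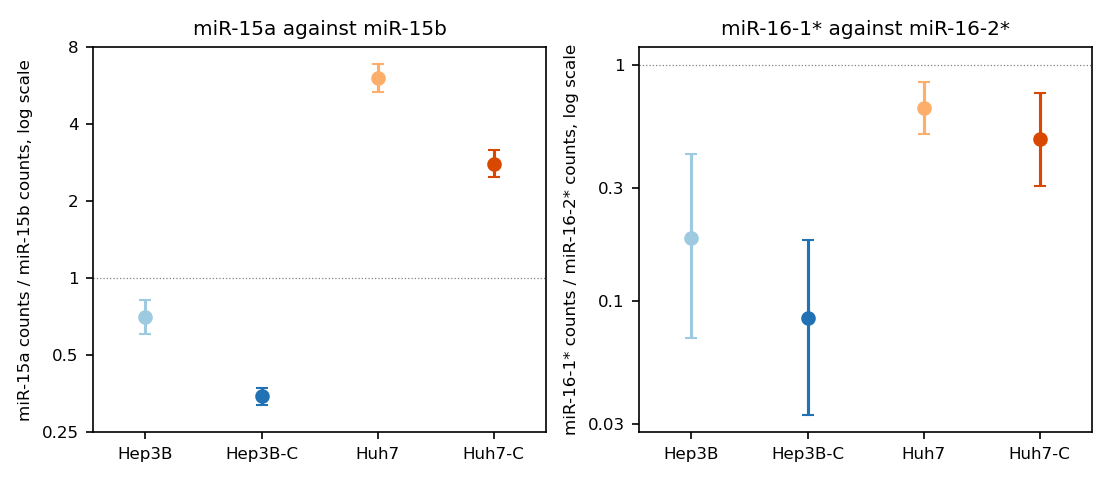
Ratio of hsa-miR-15a to hsa-miR-15b counts (left) and of hsa-miR-16-1* to hsa-miR-16-2* counts (right) in each library, on log axes, with exact 95% intervals and a dotted line at a ratio of 1. Both ratios are higher in the Huh7 libraries (6.04 and 2.80, left) than in the Hep3B libraries (0.707 and 0.346, left).

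Between the HCC lines, 2 of 5 members were up-regulated in Huh7 over Hep3B and 0 down-regulated per total reads, where 34.1% of 828 miRNAs were up-regulated and 9.18% were lower past the thresholds. The members were hsa-miR-15a, with a log2 fold-change of 3.25 (3.07 to 3.43), and hsa-miR-16, with 1.93 (1.84 to 2.02). Per miRNA counts, hsa-miR-15a had 0.87 (0.68 to 1.05) and hsa-miR-16 had -0.45 (-0.54 to -0.36), and 2 of 5 members, hsa-miR-15b at -2.23 and hsa-miR-195 at -1.66, were down-regulated instead, beside 30.1% of all miRNAs down-regulated and 10.1% up-regulated. hsa-miR-15a was thus the member whose direction between the HCC lines was the same under both scales, and it lay 1.66 above the median of all miRNAs with at least 10 counts. hsa-miR-15b lay below that median by 1.44 (-1.44).

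Between the HCSC lines, 3 of 5 members were down-regulated in Huh7-C against Hep3B-C and 0 up-regulated per total reads, where 23% of 868 miRNAs were called down-regulated and 14.4% up-regulated. With total miRNA counts as library sizes 3 of 5 were again down-regulated, beside 24.9% of all miRNAs down-regulated and 13.1% up-regulated. With TMM library sizes or DESeq2 size factors 2 of 5 were down-regulated, since hsa-miR-16, at -0.81 and -0.77, no longer reached the fold threshold. Per total reads the log2 fold-changes were -2.80 (-3.52 to -2.15) for hsa-miR-195, -2.30 (-2.46 to -2.14) for hsa-miR-15b and -1.08 (-1.14 to -1.01) for hsa-miR-16. hsa-miR-15a had 0.72 (0.59 to 0.85) and hsa-miR-497 had -0.57 (-2.11 to 0.81). The 4 comparisons share libraries and are not independent of each other.

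hsa-miR-15a and hsa-miR-16 are also known to be abundant in blood cells, whose markers were not at the same level in the 4 libraries. Of 7 blood and erythroid miRNAs, the summed counts were 8 (Hep3B), 1 (Hep3B-C), 800 (Huh7) and 11 (Huh7-C). In Huh7, 773 of these were of hsa-miR-451, a red cell miRNA with 1, 1 and 2 counts in the other libraries, and hsa-miR-142-3p, a miRNA of blood cells in general, had 20 counts against 4 (Hep3B), 0 (Hep3B-C) and 3 (Huh7-C). hsa-miR-144, whose hairpin is cut from the same transcript as hsa-miR-451, was at 0 in every library, but its other arm, hsa-miR-144*, had 4 (Hep3B), 9 (Hep3B-C), 17 (Huh7) and 4 (Huh7-C) counts, and hsa-miR-150, a lymphocyte miRNA, was at 0 throughout. Also on this list, hsa-miR-486-5p had 0 (Hep3B), 0 (Hep3B-C), 4 (Huh7) and 6 (Huh7-C) counts. In the same order hsa-miR-142-5p had 2, 0, 3 and 0 counts, and hsa-miR-223 had 1, 0, 0 and 0. The part of the blood and erythroid counts in the Huh7 levels of the family was not tested.

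The ratio of guide to passenger counts compares both arms of 1 hairpin within a library. Fisher's exact test was used, adjusted over all guide and passenger pairs of the files with at least 10 counts (112 for Hep3B and 104 for Huh7), and a ratio was called by the same thresholds as the members. Of the 6 family ratios, 2 were called higher in the HCSC library of each pair and 0 lower. Over all hairpins, 3.57% were called higher and 6.25% lower in Hep3B-C, and 11.5% higher and 3.85% lower in Huh7-C.

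For miR-15b there were 5.52 guide counts per passenger count in Hep3B (95% interval 4.29 to 7.18) and 132 in Hep3B-C (84.3 to 219), a log2 change of 4.55 with an adjusted p of 9.56e-42 by Fisher's exact test. This change ranked 3 of 112, counted from the largest increase. In the Huh7 pair the ratio was 9.16 (6.31 to 13.7) in Huh7 and 32.2 (17.8 to 65.1) in Huh7-C. The log2 change was 1.77, with an adjusted p of 0.00149 by Fisher's exact test, and ranked 15 of 104. The guide of this hairpin and its passenger therefore changed unequally in both pairs. Counts of hsa-miR-15b* were 73 (Hep3B), 19 (Hep3B-C), 31 (Huh7) and 11 (Huh7-C), or 4.35, 1.23, 2.92 and 1.03 TPM. The passenger was thus lower in both HCSC libraries, also in CPM (42.0, 3.50, 5.40 and 2.72). The guide was higher there on both scales. The paper lists hsa-miR-15b* as down-regulated in HCSCs. The median change over all hairpins was 0.13 for the Hep3B and 0.28 for the Huh7 libraries.

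For miR-16, whose guide pools both hairpins, there were 37.4 guides per hsa-miR-16-2* in Hep3B and 99.5 in Hep3B-C (log2 change 1.42, adjusted p of 3.03e-05 by Fisher's exact test), and 21.8 in Huh7 and 42.5 in Huh7-C (0.95, under the fold threshold). Per hsa-miR-16-1* there were 203 and 1180 guides in the Hep3B pair, on 7 passenger counts in each library (log2 change 2.54, adjusted p of 0.0123 by Fisher's exact test, not called). In the Huh7 pair there were 33.3 and 87.7 (1.38, adjusted p of 3.33e-06, called). All 4 of these ratios were higher in the HCSC library.

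hsa-miR-195 had 6.29 guides per passenger in Hep3B and 21.1 in Hep3B-C (adjusted p of 0.104 by Fisher's exact test), and 3.54 and 3.50 for Huh7 and its HCSCs. The interval in Huh7-C (1.37 to 10.6) lay below that in Hep3B-C (11.2 to 44.6). It overlapped those in Hep3B (2.81 to 16.5) and Huh7 (1.88 to 7.14). The passengers hsa-miR-497* with 1 count in each library and hsa-miR-15a* with 0, 0, 1 and 0 counts were too rare to give a ratio that the depth can show.

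**Figure D5:**
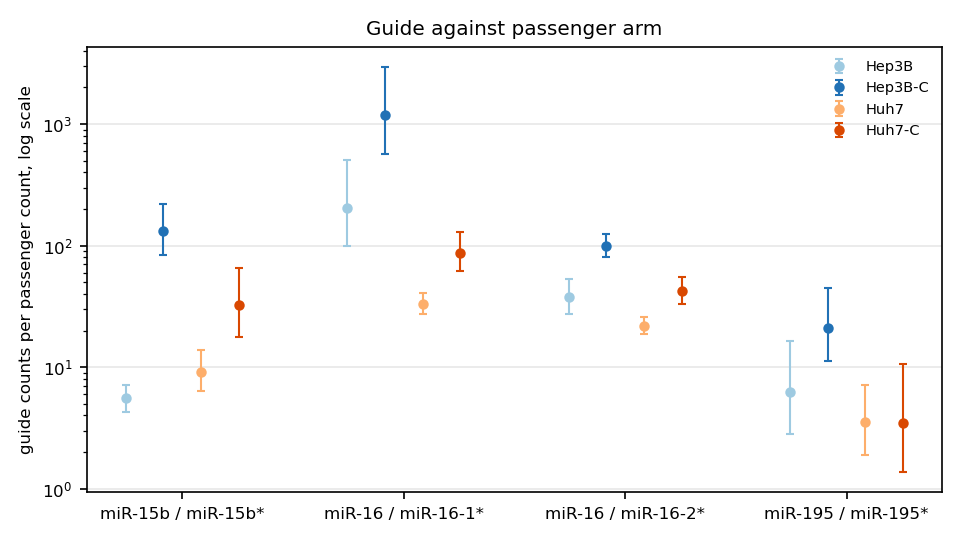
Guide counts per passenger count for 4 guide and passenger pairs of the family in each library, on a log axis, with exact 95% intervals. The ratio is higher in the HCSC library (dark) than in its HCC library (light) for miR-15b (5.52 and 132, and 9.16 and 32.2) and for both passengers of miR-16.

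The relatives on the X chromosome were compared with the family. hsa-miR-424, with the same seed, had counts of 55 (Hep3B), 193 (Hep3B-C), 570 (Huh7) and 357 (Huh7-C), and hsa-miR-503 had 24, 64, 83 and 105. hsa-miR-424 was higher in Huh7 than in Hep3B on both scales, by 4.03 (3.63 to 4.46) per total reads and 1.65 (1.25 to 2.08) per miRNA counts. Against hsa-miR-16 it was higher by 2.10 (1.69 to 2.54) on the log2 scale between the HCC lines and by 2.49 (2.23 to 2.76) between the HCSC lines. Within the pairs hsa-miR-424 against hsa-miR-16 was lower in the HCSC library, by -0.73 (-1.17 to -0.26) and -0.34 (-0.55 to -0.13). hsa-miR-503 against hsa-miR-16 was lower in Hep3B-C by -1.12 (-1.83 to -0.38) but higher in Huh7-C by 0.67 (0.24 to 1.11). Between the lines it had 0.52 (-0.16 to 1.25) for the HCC and 2.32 (1.85 to 2.79) for the HCSC libraries.

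Other miRNAs known for repressing G1 cyclins or cyclin-dependent kinases (17, with the let-7, miR-34 and miR-26 families, hsa-miR-424 and hsa-miR-503) gave 8 up-regulated and 0 down-regulated of 16 tested in the Hep3B pair per total reads, and 0 and 6 per miRNA counts. Over all miRNAs of this pair the shares were 34.1% and 2.52% per total reads and 5.64% and 13.4% per miRNA counts. The median log2 fold-change of the list was 1.12 per total reads, beside 1.54 over all miRNAs tested in the pair. In the Huh7 pair 3 of 17 were down-regulated and 0 up-regulated, and 2 and 1 per miRNA counts (17.1% and 3.11% of all miRNAs of this pair per total reads, and 9.59% and 7.25% per miRNA counts), with a median of -0.32 beside -0.65 over all miRNAs tested. hsa-let-7a, the most abundant of them, stood at 1.52 (Hep3B pair) and 0.24 (Huh7 pair) per total reads on the log2 scale, and at -0.25 and 0.76 per miRNA counts. hsa-miR-34a, a target of p53, had 0.59 and -3.62 per total reads, and -1.17 and -3.10 per miRNA counts. Of the 6 miRNAs of the miR-17 family, which are known for promoting entry into S phase, 1 was up-regulated (hsa-miR-20a, 1.14) and 0 down-regulated in the Hep3B pair per total reads, 0 and 3 per miRNA counts, and none in the Huh7 pair under either library size, beside the same shares of all miRNAs. Their median per total reads was 0.79 for the Hep3B and -0.30 for the Huh7 libraries.

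Among the 265 miRNAs with at least 10 counts in every library, those with a pattern over the 4 libraries nearest to hsa-miR-16 were hsa-miR-3615 (Euclidean distance 0.39 between log2 TPM centred on each miRNA's mean), hsa-miR-92a-1* (0.45) and hsa-miR-2110 (0.50). The counts of hsa-miR-3615 were 19, 83, 47 and 30. The other members ranked 78 (hsa-miR-195), 80 (hsa-miR-15b) and 110 (hsa-miR-15a) of the 264 other miRNAs in nearness to hsa-miR-16, and hsa-miR-424 ranked 172. The distance rests on 4 libraries and on total reads. For the summed family, hsa-miR-16, which holds most of the sum, was left out of the candidates. The nearest of the others were hsa-miR-3615 (0.30), hsa-miR-2110 (0.44) and hsa-miR-25* (0.50).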

How the data were processed

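Small RNA of 4 cell populations was sequenced, with 1 library per condition. Per the paper, the authors removed contaminants and reads under 18 nt, aligned those left to the human genome, set aside other small RNAs and assigned reads to miRBase release 17. They deposited raw counts per miRNA, not normalized. TPM was computed from these counts and the study's total reads per library. Current miRNA names were matched to RefSeq by name, and all members matched.

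Libraries were compared by Audic and Claverie's exact Poisson test (2-sided, Benjamini-Hochberg over miRNAs counted in either library, a TPM of 0 set to 0.001). Intervals (95%) are exact binomial, Clopper-Pearson or Poisson intervals. PCR duplicates are not independent molecules, so they cover counting error only. Differences between pairs were tested by the noncentral hypergeometric distribution. EdgeR 4.0.16 (quasi-likelihood, TMM, parent line as block) was fitted to miRNAs that reached 10 counts in 2 or more libraries, with Benjamini-Hochberg adjustment, called at an adjusted p of 0.05. Each HCSC line was derived from its parent line, which pairs the samples. The deviations of both lines' HCC and HCSC libraries correlated (r = 0.833 over 443 miRNAs, which are not independent).

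The alternatives were total miRNA counts, TMM and DESeq2 1.42.0 size factors, other filters and tests, no replicate block and leaving out each library. The pair test and edgeR were tested on simulated data. Named miRNAs were the members, their passengers, miRNAs of the same seed and hsa-miR-503, the 3 nearest patterns, and, of each list, the most abundant and the extremes in each pair. Members and lists were chosen with earlier results of these data known. R 4.3.3, Python 3.11.15 and scipy 1.17.1 were used. Loci come from GENCODE release 29.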

Additional observations from a re-analysis of the deposited data

Results flagged for a closer look

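The fold-changes of 4 members differed between the pairs. As a log2 ratio of the change in the Huh7 pair over that in the Hep3B pair, with total reads as library sizes, the difference was -2.53 for hsa-miR-15a, -2.45 for hsa-miR-15b, -3.01 for hsa-miR-16 and -3.53 for hsa-miR-195, each past a log2 difference of 1 and an adjusted p of 0.01 in the exact test. Of the 265 miRNAs tested, 72.1% were likewise lower in the Huh7 pair, with a median of -1.81. With total miRNA counts the values were -0.25, -0.17, -0.73 and -1.25, beside a median of 0.48, and 7.92% of all miRNAs were called lower. With TMM library sizes they were -0.80, -0.72, -1.28 and -1.80, beside a median of -0.08. Only hsa-miR-16 and hsa-miR-195 passed the fold threshold under TMM, and no member passed both thresholds under total miRNA counts. The test compares 4 libraries and has no replicate behind it, and hsa-miR-497 had too few counts to be tested.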

How the results depend on the processing

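Library size and the assumed variation between cultures both moved the calls. In the order total miRNA counts, TMM and DESeq2 size factors, the family's log2 fold-change was 0.81, 1.16 and 1.40 (Hep3B pair) and 0.0825, -0.12 and 0.14 (Huh7 pair). Up-regulated members of the Hep3B pair numbered 0 with miRNA counts, 2 with TMM and 0 in edgeR's exact test with an assumed coefficient of variation of 0.4, and the 1 down-regulated member of the Huh7 pair became 0 in all 4 of these settings. Between HCC lines, up-regulated members became 0, 1 and 1 (1 with the assumed variation) and down-regulated members 2, 1 and 1. Between HCSC lines, 1 was up-regulated with DESeq2 size factors (hsa-miR-15a) and 0 down-regulated with the assumed variation (2 with TMM and 2 with DESeq2 size factors). Signs turned in the Hep3B pair for hsa-miR-15a with miRNA counts (-0.0358) and for hsa-miR-497 (-0.74, -0.39 and -0.15). The intervals of these values included 0, so no reversal is shown there. In the Huh7 pair the sign turned for hsa-miR-16 (0.17 with miRNA counts, 0.22 with DESeq2 size factors). Between HCC lines signs turned for hsa-miR-15b (-2.23, -1.31 and -1.29), hsa-miR-195 (-1.66, -0.74 and -0.72), hsa-miR-497 (-1.26, -0.34 and -0.33) and hsa-miR-16 (-0.45 with miRNA counts). Without hsa-miR-16 in the sum, the log2 odds ratio of hsa-miR-497 in the Hep3B pair was -1.38, its interval including 0. With miRNA counts 0 of 4 differences between pairs passed both thresholds: hsa-miR-15a (-0.25), hsa-miR-15b (-0.17) and hsa-miR-195 (-1.25) missed the adjusted p and hsa-miR-16 (-0.73) the fold, and with TMM hsa-miR-15a (-0.80) and hsa-miR-15b (-0.72) missed the fold.

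In edgeR over both lines 0 members were called in every setting. With no replicate block hsa-miR-15a had -0.0774 and hsa-miR-15b 1.39, and the block changed no call. hsa-miR-15a had -0.0869 with no filter on low counts, and hsa-miR-497 0.19 with total reads. Leaving out each library, without the block, gave -0.83 (without Huh7-C) to 1.25 (without Huh7) for hsa-miR-15a and -1.01 (without Hep3B-C) to 1.42 (without Huh7-C) for hsa-miR-195, and 0.07 (without Hep3B-C) to 2.15 (without Hep3B) for hsa-miR-15b. The lone library of a state is there assumed to vary like the others. Of 196 values computed under an alternative, 133 did not change in direction or call, with counts of calls taken as the same within 1.5 times and differences between pairs judged by adjusted p alone. These 133 include the counts of 0 members called over both lines, where edgeR called 0% of all miRNAs, so little could change. They also include values that kept their sign but shrank, such as hsa-miR-15b from 1.21 to 0.07 without Hep3B-C. Depth limits hsa-miR-497 (7 to 15 counts), whose interval per total reads ran from -0.30 to 2.47 in the Hep3B pair and from -2.27 to 0.83 in the Huh7 pair.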
